A study of Mus musculus with 4 samples.

Results

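Cyclic nucleotide phosphodiesterases are the enzymes that break down cAMP and cGMP, and the RNA of 9 of them, *Pde1b*, *Pde2a*, *Pde3b*, *Pde4a*, *Pde4b*, *Pde4d*, *Pde7a*, *Pde7b* and *Pde8a*, was followed in follicular B cells with and without the transcription factor Ets1. The 9 were chosen by symbol, as phosphodiesterases of lymphocytes, out of 23305 genes. The choice was made with the FPKM values and the genotype contrast of the same libraries already known, so what is given for the 9 is a description of their values, without a p-value. Quiescent follicular B cells (B220+ CD23-high CD21-low, negative for CD80 and for the switched isotypes IgA, IgE, IgG1, IgG2a, IgG2b and IgG3) had been sorted from spleens of female mice. There were 2 libraries from WT mice of the C57BL/6 strain and 2 from Ets1-/- mice on a C57BL/6 x 129Sv background, with no treatment. Strain and genotype therefore changed together in every comparison and cannot be told apart. The age of these mice and the number of animals behind a library are not given in the sources used here, and the p-values below measure the spread between these libraries.

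Cells make cAMP with adenylyl cyclases, which are switched on by receptors coupled to the stimulatory G protein, and cGMP with guanylyl cyclases. Phosphodiesterases end the signal by hydrolysing the cyclic nucleotide, and their families differ in substrate and control. PDE1 is activated by calcium and calmodulin, PDE2 is activated by cGMP and PDE3 is inhibited by cGMP, and all of them act on both nucleotides. PDE4, PDE7 and PDE8 are specific for cAMP. In lymphocytes, cAMP acting through protein kinase A is known to restrain antigen receptor signaling.

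Expression had been deposited as FPKM, a count of fragments divided by transcript length and by the mapped reads of the library, so that levels can be compared between genes. The relative depth of the libraries, read from the steps between very low FPKM values, was 1 and 1.75 in WT replicates 1 and 2 and 1.67 and 0.876 in Ets1-/- replicates 1 and 2. The 7 follicular B cell markers examined were present in all libraries. Their summed FPKM was 6524 and 6299 in WT and 5233 and 6248 in Ets1-/-, lower in both Ets1-/- libraries. Of these genes only *Cd79a* did not overlap between the genotypes. The FPKM of *Ets1* taken over the whole gene was 231 and 275 in WT and 229 and 229.8 in Ets1-/- B cells. That value does not show whether part of the gene is missing. The paper reports that the exons targeted in the knockout were transcribed less or not at all in Ets1-/- B cells. Neutrophil granule genes stood apart, with a summed FPKM of 111 and 92.3 in WT and of 2555 and 699 in Ets1-/- replicates 1 and 2. Of these genes *Ngp*, *Camp* and *Ltf* were called higher (limma, Benjamini-Hochberg adjusted p = 0.0282, 0.0301 and 0.0395), and the others were higher without overlap but not called. The sums of 8 myeloid genes, 69.5 and 36.6 in WT and 168 and 108 in Ets1-/-, and of 4 erythroid genes, 1.05 and 0.735 in WT and 5.69 and 2.42 in Ets1-/-, were also higher. Of the myeloid genes *Emr1*, a macrophage marker, was called higher (limma, Benjamini-Hochberg adjusted p = 0.00969). *Lyz2* and *Mpeg1* were higher without overlap but not called, and *Csf1r*, *Cd68*, *C1qa*, *C1qb* and *Cd14* overlapped between the genotypes. Since these are bulk samples, a change in the number of cells of a type and a change in RNA per cell cannot be told apart.

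Because Ets1 binds DNA around a GGAA core and cAMP acts through the cAMP response element, RefSeq promoter sequences (GRCm38.p6, from 250 bases before to 50 bases after a transcript start) were searched for both kinds of motif. The motifs were chosen after the values were known. For 7 of the 9 genes 18 promoters were found, and for *Pde3b* and *Pde7a* none was matched. The letters CGGAAG, on either strand, were in 2 of the 18 promoters and in 16.9% of all 32851 promoters. Both belong to *Pde2a* and overlap, so they show the same site, which lies 22 bases after 1 annotated start and 214 bases before another. The longer ETS forms CCGGAAGT and CAGGAAGT were in 0 of the 18, against 3.89% and 3.33% of all promoters. The full response element TGACGTCA was in 0 of the 18 and in 1.79% of all promoters, while its core TGACG, on either strand, was in 4 of the 18 and in 20.8% of all. The matches are shown because they are the places in these promoters where the letters of either motif occur, with the motif or its reverse complement in capitals and read 5′ to 3′ along the gene, all on the plus strand.
*Pde2a*, CGGAAG, chr7:101451027-101451054: aatgggataagCGGAAGgcagcgaaggc
*Pde2a*, TGACG, chr7:101450523-101450549: gggcgcaggagCGTCAcggctgctgca
*Pde4a*, TGACG, chr9:21184040-21184066: gcacagctcgaCGTCAggctggggagg
*Pde4b*, TGACG, chr4:102421510-102421536: atttggctgcaCGTCAattttctcatc
*Pde8a*, TGACG, chr7:81213170-81213196: ctgctttgcatTGACGccagcagccgc
A match is a description of letters only and does not show binding. The paper lists *Pde2a*, as downregulated in Ets1-/- B cells, among potential Ets1 targets. These were drawn from genes with a nearby Ets1 peak in its ChIP-seq of B cells.

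In WT follicular B cells the phosphodiesterase RNA was dominated by *Pde4b* and *Pde7a*, which encode cAMP-specific enzymes, followed by *Pde2a*. The mean FPKM fell in the order *Pde4b*, *Pde7a*, *Pde2a*, *Pde1b*, *Pde3b*, *Pde8a*, *Pde4a*, *Pde4d* and *Pde7b*, from 56.5 to 0.0862. The ranges of the 2 WT replicates separated all neighbours in this order except *Pde8a* and *Pde4a*. In Ets1-/- B cells the order was *Pde7a*, *Pde4b*, *Pde1b*, *Pde4a*, *Pde2a*, *Pde3b*, *Pde8a*, *Pde4d* and *Pde7b*, and the neighbours *Pde4a* and *Pde2a* as well as *Pde3b* and *Pde8a* overlapped. *Pde2a* thus stood at place 3 in WT and 5 in Ets1-/- B cells, and *Pde4a* at place 7 and 4.

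**Figure D1:**
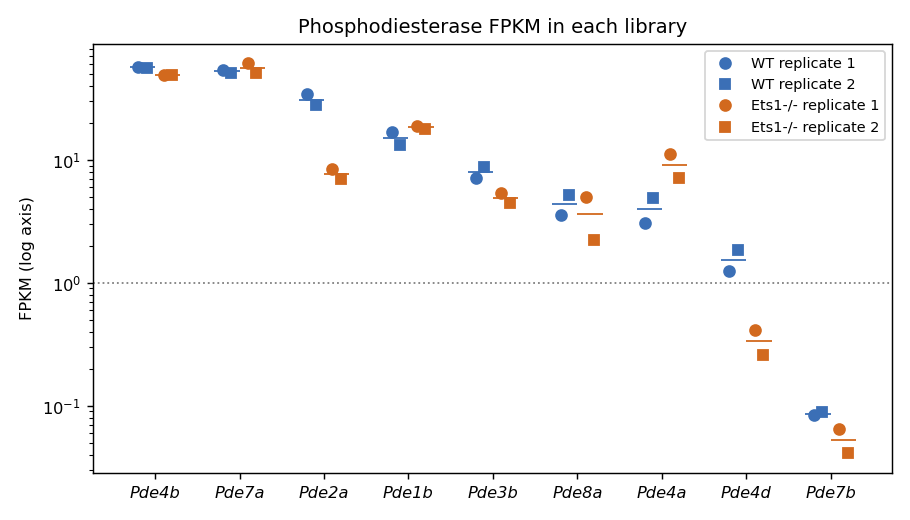
FPKM of the 9 phosphodiesterases on a log axis, ordered by WT mean; each point is 1 library (blue WT, orange Ets1-/-), short lines are genotype means and the dotted line is an FPKM of 1. *Pde2a* lies at 34.1 and 27.7 in WT and at 8.36 and 7.06 in Ets1-/-, while *Pde4a* lies higher in Ets1-/- and *Pde4b* and *Pde7a* stay near the top in both.

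Among the phosphodiesterases that act on both nucleotides, *Pde2a* was lower in Ets1-/- B cells, *Pde3b* was lower by less, and *Pde1b* was slightly higher. *Pde2a*, the cGMP-stimulated enzyme, lies on chromosome 7 from 108570212 to 108661340 of mm9 (plus strand). Its FPKM was 34.1 and 27.7 in the WT replicates and 8.36 and 7.06 in the Ets1-/- replicates, with means of 30.9 ± 4.50 (SD, n = 2) and 7.71 ± 0.923 (SD, n = 2). The genotypes did not overlap and the WT mean was 4.01 times the Ets1-/- mean, whereas replicates of a genotype differed by at most 1.23 times. On the log2(FPKM + 1) scale, used for all log2 fold changes here, the difference was -1.87 (standard error 0.17), the 83rd lowest among the 10949 genes fitted. Of the endothelial markers, examined since endothelium is known to express *Pde2a*, *Cdh5*, *Kdr*, *Tek*, *Emcn* and *Tie1* were under an FPKM of 1 in all 4 libraries, with *Emcn* at 0 throughout. *Pecam1*, which B cells also express, made up nearly all of the summed level of that list, 92.8 and 83.3 in WT and 68.6 and 87.2 in Ets1-/-. The summed level of 10 T cell markers was 328 and 332 in WT and 299 and 380.5 in Ets1-/-, so it overlapped between the genotypes. That of 5 marginal zone B cell markers was 197 and 232 in WT and 153 and 97.0 in Ets1-/-, lower in both Ets1-/- libraries. This came from *Cr2*, at 102 and 116 in WT and 65.1 and 30.0 in Ets1-/-, and *Dtx1*, at 63.6 and 78.9 in WT and 48.8 and 40.8 in Ets1-/-, while *Cd9*, *S1pr3* and *Cd1d1* overlapped between the genotypes. *Cr2* encodes CD21, on which the cells were sorted. The CD21-low gate is meant to leave marginal zone B cells out, and according to the paper Ets1-/- mice lack these cells. The part of these genes in the *Pde2a* difference was not tested.

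*Pde3b*, on chromosome 7 from 121558795 to 121682765, encodes the cGMP-inhibited enzyme that also acts downstream of insulin. Its FPKM was 7.15 and 8.80 in WT and 5.34 and 4.49 in Ets1-/-, so both Ets1-/- values lay below both WT values. The ratio of the WT to the Ets1-/- mean was 1.62 and the log2 fold change -0.60 (standard error 0.17). *Pde1b*, the calmodulin-dependent enzyme on chromosome 15 from 103333465 to 103360483, was at an FPKM of 16.9 and 13.3 in WT and of 18.9 and 18.0 in Ets1-/-. Its Ets1-/- values were above its WT values, but the ratio of the means, 1.22, was smaller than the factor of 1.27 between the WT replicates, and the log2 fold change was 0.27 (standard error 0.16). With 1 library left out the *Pde1b* difference ranged from 0.11, without WT replicate 2, to 0.44, without WT replicate 1.

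The PDE4 genes, which encode the cAMP-specific enzymes blocked by rolipram, did not move together. *Pde4b*, on chromosome 4 from 101760148 to 102279864, was the most abundant in WT with an FPKM of 56.7 and 56.4, against 49.1 and 48.8 in Ets1-/-. Its replicates differed by factors of only 1.005 and 1.006, so the genotypes were separate although the log2 fold change was -0.20 (standard error 0.13). *Pde4a*, on chromosome 9 from 20970158 to 21017692, was higher in Ets1-/-, with an FPKM of 3.06 and 4.88 in WT and of 11.2 and 7.13 in Ets1-/-. The Ets1-/- mean of *Pde4a* was 2.30 times the WT mean, the log2 fold change was 1.03 (standard error 0.28), and its spread between replicates was a factor of 1.59 in WT and 1.57 in Ets1-/-. The gene lies 11.4 Mb from *Ets1* on the same chromosome, and strain and genotype cannot be told apart there either. *Pde4d*, on chromosome 13 from 109240142 to 110743669, was measured at an FPKM of 1.25 and 1.84 in WT and of 0.415 and 0.258 in Ets1-/-. The WT mean of *Pde4d* was 4.60 times the Ets1-/- mean, a larger ratio than for *Pde2a*, but at this low level its log2 fold change depended on the pseudocount and was -0.92 (standard error 0.20) with 1 and -1.92 with 0.1 added to the FPKM. Since *Pde4d* reached the FPKM minimum of 1 by its WT mean only, a difference in this direction was built into its being fitted at all.

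The other cAMP-specific genes showed little difference or were too low to compare. *Pde7a*, on chromosome 3 from 19123108 to 19211322, encodes a high-affinity enzyme that rolipram does not block, and its FPKM was 54.1 and 50.8 in WT and 60.9 and 50.8 in Ets1-/-. The genotypes overlapped, and the log2 fold change of 0.08 (standard error 0.16) changed sign in 1 of 11 other settings. *Pde8a*, on chromosome 7 from 88358482 to 88479419, was at 3.58 and 5.18 in WT and at 4.97 and 2.25 in Ets1-/-, and its Ets1-/- replicates lay further apart than its genotype means. *Pde7b*, on chromosome 10 from 20117810 to 20444884, stayed between an FPKM of 0.0410 and 0.0887 in all libraries, under the minimum for the fit. The counting was not stated to use strand, and the spans of *Pde7a*, *Pde7b* and *Pde8a* each overlap 1 annotated gene on the opposite strand. *Pde2a* and *Pde4d* overlap 1 and 4 annotated genes on their own strand, and *Pde7b* overlaps 3 in all. Introns were included in these spans and exon overlap was not examined, so whether reads of such genes entered the values was not tested.

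The libraries of each genotype differed in depth, so the values were also set side by side by depth. *Pde3b*, *Pde4a*, *Pde4d*, *Pde7b* and *Pde8a*, 5 of the 9, were higher in the deeper library of each genotype, and so were 30.3% of all fitted genes, beside 4 of the 8 fitted phosphodiesterases. Setting the deeper Ets1-/- library against the deeper WT library, and the shallower against the shallower, gave ratios of 2.29 and 2.33 for *Pde4a*, 0.607 and 0.628 for *Pde3b*, 0.225 and 0.206 for *Pde4d*, and 0.301 and 0.207 for *Pde2a*. The genotypes of these 4 genes did not overlap, so any pairing of the libraries gives the same direction, and the ratios show sizes only. *Pde7a*, at 1.20 and 0.939, was on both sides of 1, and *Pde8a* gave 0.959 and 0.628. The summed levels of the neutrophil, myeloid and erythroid genes were likewise higher in Ets1-/- replicate 1. *Pde4a*, *Pde1b* and *Pde7a* were also highest in that library. The part of the neutrophil, myeloid and erythroid genes in the differences of these phosphodiesterases was not tested.

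Of the 9 genes, 8 averaged an FPKM of 1 or more in WT or in Ets1-/- and entered the limma fit across 10949 genes. Genes were called at a log2 fold change of 1 or more in either direction together with an adjusted p (Benjamini-Hochberg) of 0.05 or less. Of the 8, 1 was called, *Pde2a*, beside 1.7% of all fitted genes, 0.822% being called lower and 0.877% higher. *Pde4a* reached the fold but not the adjusted p. The genotypes did not overlap for 6 of the 8, 4 lower and 2 higher in Ets1-/-, beside 41.6% of all fitted genes, or 22.2% lower and 19.4% higher. The median log2 fold change of the 8 was -0.24, against -0.02 over all fitted genes. Nothing is read from these counts, since the contrast was known when the 9 were chosen. *Pde2a* was not called with any of the 4 libraries left out, or when no minimum FPKM was set, while its log2 fold change stayed between -2.02 and -1.73 over the 11 other settings.

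**Figure D2:**
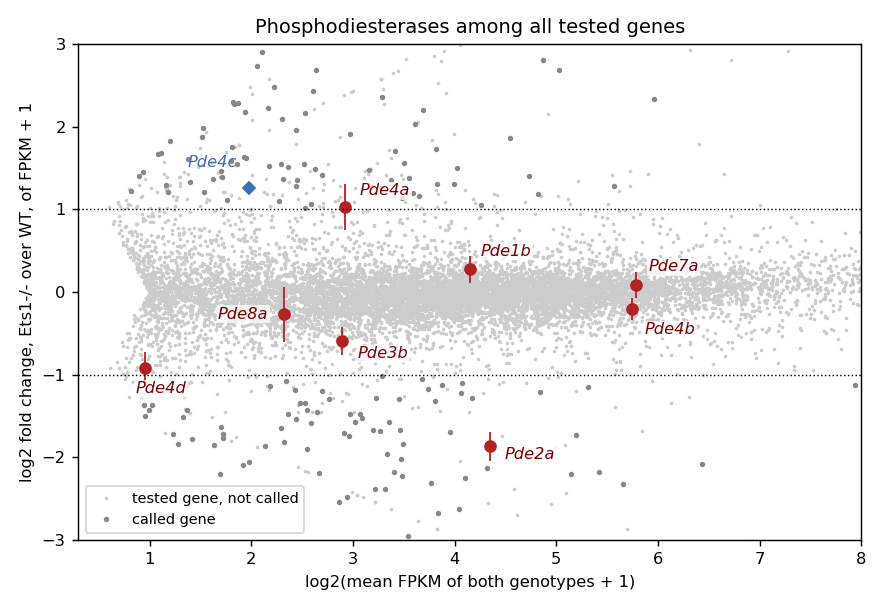
Log2 fold change of FPKM + 1 (Ets1-/- over WT) against log2 of the mean FPKM + 1 for the fitted genes, with called genes in dark grey, 8 phosphodiesterases in red with standard errors, and *Pde4c* in blue; dotted lines mark a log2 fold change of 1 in either direction, and 415 genes beyond the axes are not drawn. *Pde2a* at -1.87 lies among the called genes, *Pde4a* at 1.03 on the upper line, and *Pde7a* and *Pde4b* near 0.

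Summed over the 9 genes, the FPKM was 177 and 169 in WT and 159 and 139 in Ets1-/-, with means of 173 ± 5.59 (SD, n = 2) and 149 ± 14.4 (SD, n = 2). The genotypes did not overlap, and the Ets1-/- mean was 0.861 times the WT mean. The summed difference was -24.0, that of *Pde2a* was -23.2, and the differences of the other 8 genes cancelled to -0.83, the falls of all 9 adding up to -35.9 and the rises to 11.9. This balance depended on single libraries, since the other 8 differed by 8.73 without Ets1-/- replicate 2 and by -10.4 without Ets1-/- replicate 1, and the summed difference was then -13.8 and -34.3, against -22.6 and -23.9 for *Pde2a*. Without *Pde2a* the sums were 143 and 141 in WT and 151 and 132 in Ets1-/-, on both sides of the WT values. The share of *Pde2a* in the sum was 19.3% and 16.4% in WT and 5.25% and 5.09% in Ets1-/-, and that of *Pde4a* was 1.73% and 2.89% in WT and 7.01% and 5.14% in Ets1-/-. *Pde4b* and *Pde7a* together made up 62.6% and 63.4% in WT and 69.1% and 71.8% in Ets1-/-. By substrate, *Pde1b*, *Pde2a* and *Pde3b*, which act on both nucleotides, went from 32.9% and 29.5% in WT to 20.5% and 21.3% in Ets1-/-. The summed FPKM of *Pde1b*, *Pde2a* and *Pde3b* differed by -23.0, against -23.2 for *Pde2a* alone, so this shift restates that of *Pde2a*. These shares describe RNA and not enzyme activity.

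**Figure D3:**
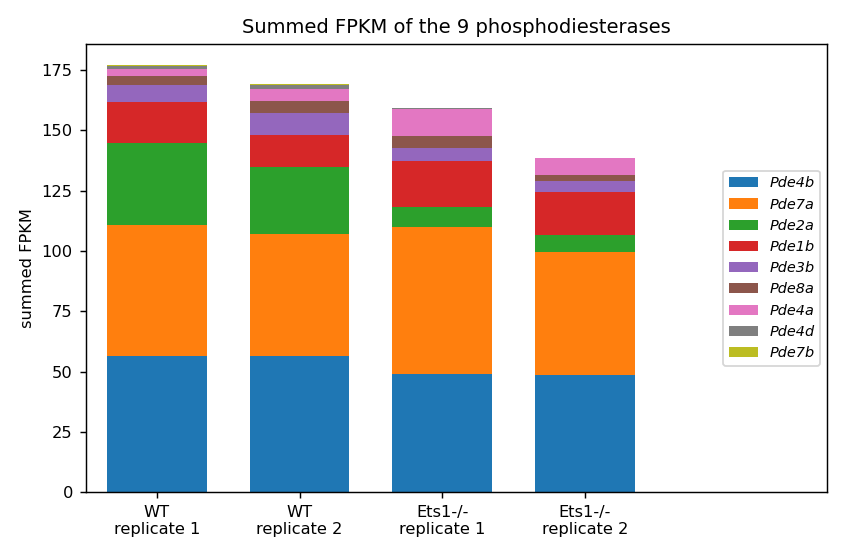
Summed FPKM of the 9 phosphodiesterases in each of the 4 libraries, with each gene as a segment. The *Pde2a* segment (green) is 34.1 and 27.7 in WT and 8.36 and 7.06 in Ets1-/-, while the total without it is 143 and 141 in WT and 151 and 132 in Ets1-/-.

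Among 15 further phosphodiesterase genes, *Pde4c* and *Pde6d* averaged an FPKM of 1 or more in WT or in Ets1-/-, and the other 13 had at most 0.616 in any library. *Pde4c*, the fourth gene of the PDE4 family, lies on chromosome 8 from 73247619 to 73275085, and its FPKM was 1.43 and 1.23 in WT and 4.96 and 4.18 in Ets1-/-. It rose with a ratio of means of 3.44 and a log2 fold change of 1.26 (standard error 0.16; limma, Benjamini-Hochberg adjusted p = 0.0385), and was called in 6 of 11 other settings, with an adjusted p from 0.00106 to 0.193. It was not called with any 1 of the 4 libraries left out, or when no minimum FPKM was set. *Pde4c* was highest in Ets1-/- replicate 1, as were the summed neutrophil, myeloid and erythroid genes, and their part in its rise was not tested. *Pde6d*, which encodes a carrier of prenylated proteins rather than an enzyme, was at 23.3 and 23.8 in WT and at 20.6 and 26.0 in Ets1-/-, which overlap. The summed FPKM of *Pde4a*, *Pde4b*, *Pde4c* and *Pde4d* was 62.4 and 64.4 in WT and 65.6 and 60.3 in Ets1-/-, and also overlapped. *Pde4a* and *Pde4c* contributed 7.19% and 9.49% of that sum in WT and 24.6% and 18.7% in Ets1-/-, and *Pde4b* contributed 90.8% and 87.7% in WT and 74.8% and 80.8% in Ets1-/-.

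The remaining genes of cyclic nucleotide signaling held no further call. Together with the 15 phosphodiesterases they were 105 genes, of which 55 were fitted, 1 was called higher (*Pde4c*) and 0 lower, or 1.82% beside 1.7% of all fitted genes. Of the 55, 12 or 21.8% had an unadjusted p under 0.05, beside 13.3% of all fitted genes, and 2 of these 12 had reached the FPKM minimum in 1 genotype only. The median log2 fold change of the 55 was -0.05. Of the 10 adenylyl cyclases, which make cAMP, 3 were fitted and 0 called. *Adcy7*, the most abundant, was at 78.6 and 70.1 FPKM in WT and 55.6 and 52.4 in Ets1-/-, without overlap, and its log2 difference was -0.45 (limma, Benjamini-Hochberg adjusted p = 0.251). *Adcy6* was at 0.371 and 0.253 FPKM in WT and at 0.605 and 1.46 in Ets1-/-, and it reached the minimum by its Ets1-/- mean only, so that its higher level there was likewise built in. All 11 guanylyl cyclases had a mean FPKM under 1 in both genotypes, at most 0.184, and were not fitted.

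The G protein alpha subunits, cAMP-raising receptors, adenosine enzymes and cyclic nucleotide exporters held no gene that passed the test either. Of the G protein alpha subunits 4 of 7 were fitted, with log2 fold changes between -0.14 (*Gnai3*) and 0.13 (*Gnas*, the stimulatory subunit and the most abundant at 458 FPKM in WT). Among receptors that raise cAMP 6 of 11 were fitted. *Vipr1*, a receptor for vasoactive intestinal peptide, was at 1.27 and 0.877 FPKM in WT and at 0.252 and 0.513 in Ets1-/-, and since it reached the FPKM minimum by its WT mean only, this direction was built into its being fitted. The enzymes of extracellular adenosine, *Entpd1*, *Nt5e* and *Ada*, had log2 fold changes of 0.29, 0.23 and -0.28. *Abcc4* and *Abcc5*, which export cyclic nucleotides, had values of 0.53 and 0.34 (limma, Benjamini-Hochberg adjusted p = 0.223 and 0.415).

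Downstream of cAMP, 7 of 9 genes of protein kinase A and its inhibitors were fitted and 0 called. *Pkig*, an inhibitor of the kinase, was the most abundant at 139 FPKM in WT, and *Prkar2a*, a regulatory subunit, differed most, from 2.10 and 2.71 in WT to 5.06 and 4.65 in Ets1-/- (log2 fold change 0.79; limma, Benjamini-Hochberg adjusted p = 0.111). *Rapgef4*, a cAMP-activated exchange factor for Rap, was at 13.5 and 14.0 FPKM in WT and at 8.39 and 4.42 in Ets1-/-, which gave a log2 difference of -1.05 (limma, Benjamini-Hochberg adjusted p = 0.184). For the 9 fitted anchoring proteins of the kinase the values lay between -0.52 (*Akap12*) and 0.17, with *Akap8* the most abundant. The 8 CREB factors and coactivators lay between -0.27 (*Ep300*) and -0.10, with 0 called. *Crtc2*, the most abundant of these 8, was at 61.9 FPKM in WT.

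Genes that respond to cAMP, but also to other signals such as antigen receptor engagement, spread widely, with 9 of 11 fitted and 0 called. *Dusp1*, a phosphatase of MAP kinases, was at 136 and 244 FPKM in WT and at 603 and 481 in Ets1-/-, which gave a log2 difference of 1.56 (standard error 0.32; limma, Benjamini-Hochberg adjusted p = 0.109). *Fos* was at 687 and 1283 in WT and at 2120 and 2307 in Ets1-/-, with a log2 difference of 1.24 (limma, Benjamini-Hochberg adjusted p = 0.204). Both Ets1-/- libraries were above both WT libraries in each case. *Rgs2*, a regulator of G protein signaling, went the other way, from 57.6 and 109 in WT to 38.8 and 35.5 in Ets1-/-, with a log2 difference of -1.08 (limma, Benjamini-Hochberg adjusted p = 0.219). None of the 3 genes passed.

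**Figure D4:**
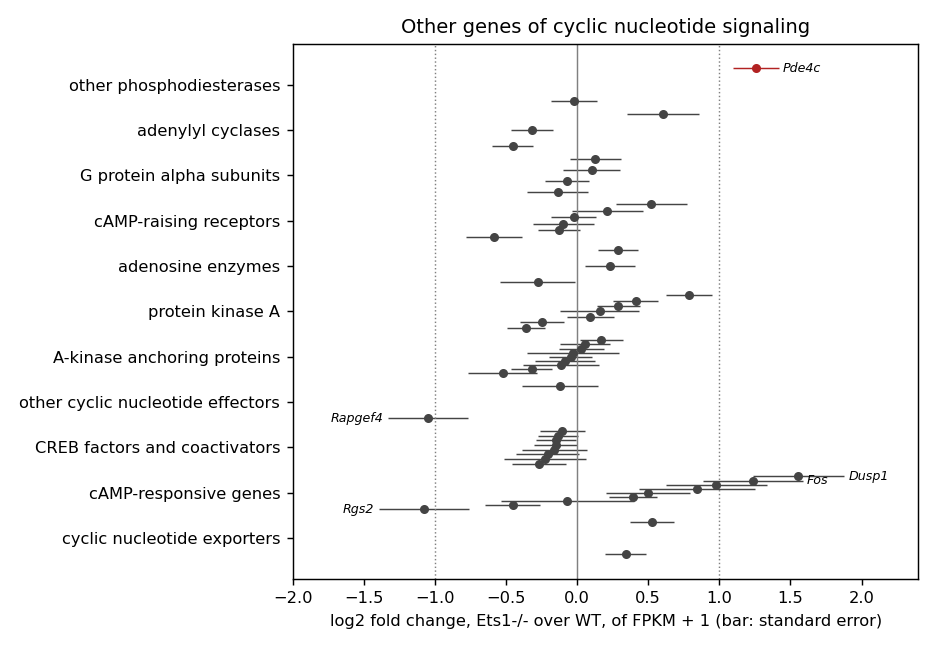
Log2 fold change of FPKM + 1 (Ets1-/- over WT) for the 55 fitted genes of cyclic nucleotide signaling other than the 9 phosphodiesterases, by list; bars are standard errors, dotted lines mark 1 in either direction, and genes beyond them are named. *Pde4c* (red, 1.26) is the 1 called gene, and the CREB factors lie between -0.27 and -0.10.

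The genes whose pattern over the 4 libraries was most like that of *Pde2a*, by the Euclidean distance between log2(FPKM + 1) values centred on each gene's mean, were *Nlrc3* at a distance of 0.0864, *Rgs18* at 0.169, *Rnase12* at 0.170, *Galnt6* at 0.230 and *Thy1* at 0.252. *Nlrc3* was at 7.59 and 5.96 FPKM in WT and at 1.30 and 1.11 in Ets1-/-, and the log2 fold changes of the 5 lay between -2.02 and -1.69. Since they were picked for the pattern of a gene that was lower in Ets1-/-, their fall was fixed by the choice, and the likeness rests on 4 libraries.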

How the data were processed

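RNA of sorted follicular B cells had been sequenced from 2 WT and 2 Ets1-/- libraries (Illumina TruSeq). Per the labels and methods, the authors aligned reads to mm9 with TopHat2 2.0.13, estimated expression with Cuffdiff and deposited FPKM, 1 value per gene symbol and library; the annotation, the Cuffdiff version and any scaling between libraries are not given in the sources used here. The number of reads behind a value is unknown from the files, so no counting interval is given. Of 23309 entries 4 with repeated symbols were left out. The design held for FPKM: log2(FPKM + 1) of the 4 libraries was fitted with limma 3.58.1 in R 4.3.3 (trended eBayes, residual degrees of freedom 2, prior 3.10) for 10949 genes, those averaging an FPKM of 1 or more in WT or in Ets1-/-. Benjamini-Hochberg adjustment was made over these genes. Simulated data were used to test the fit. Python 3.11.15 with pandas 2.3.3 gave the other values. Gene positions are from GENCODE M1 of mm9 and promoters from RefSeq on GRCm38.p6; coordinates were not converted between the builds. *Pde4d* has 2 annotated gene records, of which the longer gave the position.

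The 9 genes and all lists were chosen with earlier results of these data known. Named outside the 9 are, per list, each called gene, the gene highest in WT and the gene with the largest absolute log2 fold change, together with the 5 genes most like *Pde2a*. Of these, 1 gene that this rule names is not reported here. *Nt5e*, *Rgs2*, the single marker genes, the genes of the closing section and the motifs were chosen after values were seen. Alternatives covered the pseudocount, the FPKM minimum, quantile normalization, robust variance, the replicate block and each library left out.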

Additional observations from a re-analysis of the deposited data

How the results depend on the processing

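The number of genes changed was 186 of 10949, with 1 of the phosphodiesterases and 1 further pathway gene among them. With no minimum FPKM it was 75, with 0 and 0. With robust variance it was 305, with 1 and 2, and under a replicate block 266, with 1 and 2, the second pathway gene being *Dusp1* in both. Same-numbered replicates deviated in opposite directions (correlation across genes -0.21); with the crossed pairing, chosen after seeing the data, as a block there were 409, with 2 phosphodiesterases and 4 pathway genes. The labels do not say that a number marks a shared litter or day. With 1 library left out, where the lone library of a genotype is assumed to vary like the others, between 99 and 116 genes, 0 phosphodiesterases and 0 to 1 pathway genes were called. The cause was not tested. The log2 difference of the summed phosphodiesterase FPKM was -0.22, -0.23 after quantile normalization and between -0.32 and -0.12 with 1 library left out. Quantile normalization put the median log2 fold change of all genes at -0.01.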

Other observations

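Genes with similar names that are not cyclic nucleotide phosphodiesterases showed no called difference. *Pde12*, a mitochondrial enzyme that removes adenosine tails, was at 10.1 and 9.64 FPKM in WT and at 8.06 and 10.4 in Ets1-/-, and *Pde4dip*, a centrosome and Golgi protein that binds Pde4d, was at 8.02 and 7.38 in WT and at 6.62 and 6.17 in Ets1-/-.

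Within 1 Mb of *Pde2a* 24 other genes were fitted, of which 1, *Inppl1*, was called higher and 0 lower, and their median log2 fold change was 0.03. Within 1 Mb of *Pde4a* 49 were fitted, of which 1, *Ap1m2*, was called lower, with a median of 0.04. Within 1 Mb of *Pde4c* 65 were fitted and 0 called, with a median of 0.02. Over all fitted genes 1.7% were called, 0.877% higher and 0.822% lower, and nothing is read from the counts of neighbours. *Inppl1* and *Ap1m2* were named after their values were seen.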
